A study of Mus musculus with 48 samples.

Results

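The sites described here are the 1059 FLAG peaks that appeared in H455R cells and in no other list that marks CTCF. They were chosen by peak calls alone: each is one of the 3855 distinct peaks of the H455R FLAG list and shares not 1 bp with any peak of 11 other lists. These 11 were the FLAG lists of the 9 other genotypes and both CTCF antibody lists of WT cells. The sites make up 27.5% of the H455R list, while the 10 FLAG lists together hold 188715 peaks. Presence in the one list and absence from the others selected the sites, so both are descriptions and carry no test.

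The series maps CTCF carrying single amino acid changes in its DNA-binding domain. The cells were E14Tg2a, a line of mouse embryonic stem cells from the 129/Ola strain grown without feeders, and clones made from it. In all of them endogenous CTCF could be degraded through an auxin-inducible degron, and a doxycycline-inducible, FLAG-tagged CTCF transgene could be switched on. The transgene was H455R, K365T, Q418R, R339Q, R342C, R377C, R377H, R448Q, S354F or WT, and each genotype was treated for 2 days with 500 µM indole-3-acetic acid (IAA), an auxin, and 1 µg/ml doxycycline. A further group of WT cells, untreated, was profiled with the CTCF antibody. ChIPmentation, in which a transposase tags immunoprecipitated chromatin, was done for FLAG and for the cohesin subunit SMC3 in every treated genotype, and for CTCF in treated and untreated WT cells. Each group has 2 replicates in the labels, but each deposited list pools them by its title, so no spread between replicates can be given. No label says that a genotype was studied in more than 1 clone, so an effect of the mutation and a property of the clone cannot be told apart.

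CTCF reads DNA through a row of zinc fingers, and bound CTCF stops cohesin as it extrudes chromatin loops, which leaves cohesin subunits such as SMC3 at CTCF sites. In each finger of this type 2 cysteines and 2 histidines hold a zinc ion. The residue changed in H455R is one of the zinc-holding histidines of the seventh finger, which is replaced by arginine. Only the deposited peak lists were used, so each list gives position, width and a score of the peak caller. Depth per library is unknown. The score can be ranked within a list and was not compared between lists.

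Only 2 of the 1059 sites lay in the window from 250 bp before to 50 bp after the start of a gene, against 5.53 percent of the H455R list, and these are the sites for which sequence could be read. They are shown because both fall in the densest stretch of the sites, around Irf2 on chromosome 8. The sequences are RefSeq promoter windows of GRCm38.p6, the assembly called mm10, on the minus strand and written 5′ to 3′, with the bases inside the FLAG peak in capitals. The Gm30880 window is chr8:46284620-46284919, and the Gm39170 window is chr8:46830348-46830647. Both genes are annotated as long non-coding RNAs.
Gm30880: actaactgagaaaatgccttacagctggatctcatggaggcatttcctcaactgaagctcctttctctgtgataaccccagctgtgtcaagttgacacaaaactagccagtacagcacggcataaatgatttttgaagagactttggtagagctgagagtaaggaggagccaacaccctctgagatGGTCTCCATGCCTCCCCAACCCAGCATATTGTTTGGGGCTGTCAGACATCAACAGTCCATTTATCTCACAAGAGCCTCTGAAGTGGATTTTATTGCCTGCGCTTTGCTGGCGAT
Gm39170: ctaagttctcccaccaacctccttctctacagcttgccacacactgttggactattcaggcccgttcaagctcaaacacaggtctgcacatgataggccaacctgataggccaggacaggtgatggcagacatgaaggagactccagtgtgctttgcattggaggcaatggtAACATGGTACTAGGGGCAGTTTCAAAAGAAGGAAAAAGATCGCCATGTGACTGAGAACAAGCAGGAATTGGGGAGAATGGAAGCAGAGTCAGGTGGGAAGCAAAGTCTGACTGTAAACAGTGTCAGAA
The Gm30880 peak (chr8:46284617-46284733) was 117 bp wide with a score of 3.74, and 114 bp of it are in the window. The Gm39170 peak (chr8:46830301-46830475) was 175 bp wide with a score of 3.06, and 128 bp of it are in the window. The shared bases were 50% G or C at Gm30880 and 45.3% at Gm39170, against a median of 52.7% over 32851 whole promoter windows. Neither window held AGGGGGC or the looser AGGNGGC, which contains it, on either strand. These are written forms of the core of the CTCF motif. AGGGGGC is in 10.6% of the 32851 windows and AGGNGGC in 29.4%. The letters CCCTC, for which the protein is named, occurred at 1 place in the Gm30880 window, on the printed strand outside the peak, and at none in the Gm39170 window, and 66.0% of windows hold them. A missing match says only that these letters are not in this window. Neither site had an SMC3 peak in any of the 10 genotypes.

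The sites were weaker and narrower by their medians than the rest of the H455R list. Their scores ran from 1.54 to 5.61 with a median of 2.89 and quartiles of 2.50 and 3.23. The other 2796 H455R peaks had a median of 3.32 and reached 25.7. The strongest site ranked 318 of 3855, none of the top 100 peaks was a site, and 318 sites (30.0%) were in the upper 50% of the list. Median width was 117 bp for the sites and 181 bp for the other H455R peaks. More than 1 summit was called in 82 sites (7.74%) and in 431 of the other peaks (15.4%), against 13.3 percent of the list. Scores and widths come from the list that the rule used, so they describe the sites and carry no test.

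The other H455R peaks fall into 3 classes, which place the sites on a scale. A further 434 peaks (11.3% of the list) overlapped a FLAG peak of another mutant but none of WT and no CTCF antibody peak. Their median score was 2.90 and their median width 130.5 bp, close to the values of the sites. Another 306 peaks (7.94%) overlapped a WT FLAG peak without a CTCF antibody peak, with a median score of 2.83. The 2056 peaks at a CTCF antibody peak (53.3%) had a median score of 3.53 and a median width of 204 bp. Of the 434 peaks shared with mutants alone, 238 were shared with Q418R, 162 with R448Q and 140 with K365T, and the remaining mutants shared between 14 (R342C) and 57 (S354F).

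Most sites were clear of the other lists, although some were near misses. The distance to the nearest peak of the 11 lists had a median of 8306 bp and reached 338331 bp, and 122 sites (11.5%) had such a peak within 500 bp. The site nearest to one was inside Magi2, which encodes a synaptic scaffold protein (chr5:20360877-20361021, score 2.89), and touched it with a gap of 0 bp. Next came sites with a gap of 1 bp whose nearest coding genes were Cpz (chr5:35470726-35470822, score 2.86) and Got2 (chr8:96012348-96012440, score 4.00). Just outside the rule were a pair of peaks in Tenm3 that overlapped a K365T peak by 2 bp (chr8:48585465-48585569, score 2.19) and by 4 bp (chr8:49192649-49192740, score 3.00), and a peak far from Epha7 that overlapped an S354F peak by 8 bp (chr4:29315334-29315433, score 2.20).

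Chromosome 8 held 686 of the 1059 sites, or 64.8% (95% Wilson interval 61.9 to 67.6, counting error only), against 30.2 percent of the whole H455R list. Position did not enter the rule. Among the other H455R peaks, 477 of 2796 were on chromosome 8, or 17.1% (15.7 to 18.5), and the WT FLAG list had 5.50% of its peaks there. The share differed between the classes of peak. It was 64.8% for the sites and 44.0% (39.4 to 48.7) for peaks shared only with other mutants. That class was mixed, and a peak in it can be shared with several mutants. On chromosome 8 were 108 of 162 peaks shared with R448Q, 17 of 23 with R339Q, 8 of 14 with R342C and 28 of 56 with R377C. For K365T it was 50 of 140, for Q418R 73 of 238, for S354F 16 of 57 and for R377H 7 of 37. The lean was therefore not particular to private peaks. At WT FLAG peaks without a CTCF antibody peak, whether shared with mutants or not, the share was 12.1% (8.90 to 16.2). At CTCF antibody peaks it was 12.1% (10.8 to 13.6). Even the last class exceeded the 5.10% that chromosome 8 had of the untreated CTCF antibody list. The next chromosomes were 6 with 51 sites, 18 with 40, 12 with 38, 15 with 36 and 5 with 35, whereas the largest by length, 1 and 2, had 12 each.

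**Figure D1:**
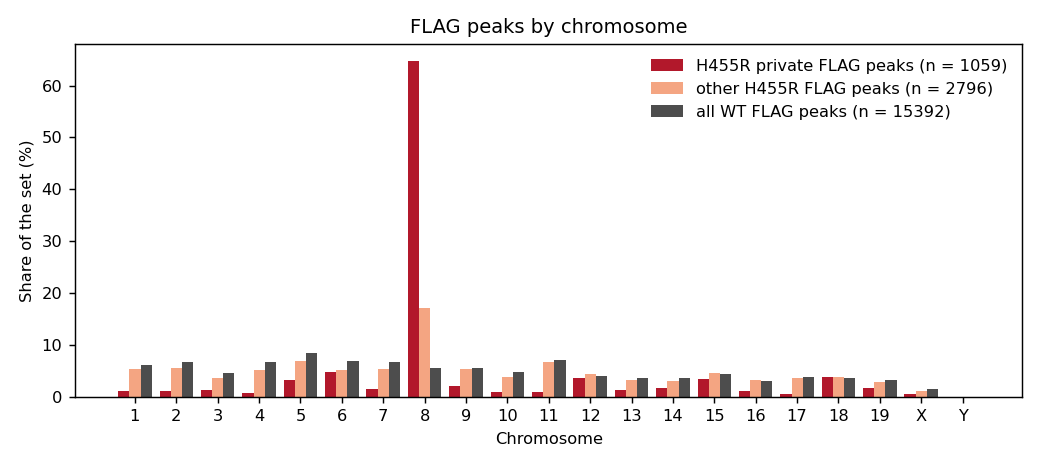
Share of each set (%, vertical axis) on each chromosome (horizontal axis), for the 1059 private H455R FLAG peaks, the 2796 other H455R FLAG peaks and the 15392 WT FLAG peaks. On chromosome 8 the bars stand at 64.8%, 17.1% and 5.50%, and on every other chromosome the private peaks have under 5% of their number.

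The sites were not spread over the whole of chromosome 8. From a point near 31 Mb, which was placed from the SMC3 lists alone in bins of 1 Mb, there were 681 sites beyond it and 5 before it, and 29.2 percent of the H455R list lay beyond it. The other H455R peaks numbered 444 beyond and 33 before. No site lay in the opening 10 Mb of the chromosome, 5 lay between 10 and 20 Mb and none between 20 and 30 Mb. After that each stretch of 10 Mb held at least 29 sites, from 82 at 30 to 40 Mb and 177 at 40 to 50 Mb to 66 at 110 to 120 Mb and 29 at 120 to 130 Mb.

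The H455R SMC3 list, which the rule did not use, placed the step: it is the boundary at which this list parted most from those of the 9 others. That SMC3 differs on either side of it is therefore given by the way it was placed, and the counts are a description. Before the step there were 129 peaks at 0 to 10 Mb in H455R against a median of 153 in the 9 others, 224 against 251 at 10 to 20 Mb and 273 against 332 at 20 to 30 Mb. Beyond it H455R had 876 against 252 peaks at 30 to 40 Mb, 1150 against 293 at 40 to 50 Mb and 2035 against 632 at 120 to 130 Mb. R448Q, which has the longest of the 10 SMC3 lists, also had 931, 1094 and 1823 peaks in those 3 stretches, but it had 412, 835 and 1007 before the step. The peak names of the H455R FLAG and SMC3 lists carry the same pair of codes, whose meaning is not stated, so the lists may share their cells and are not independent of each other.

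**Figure D2:**
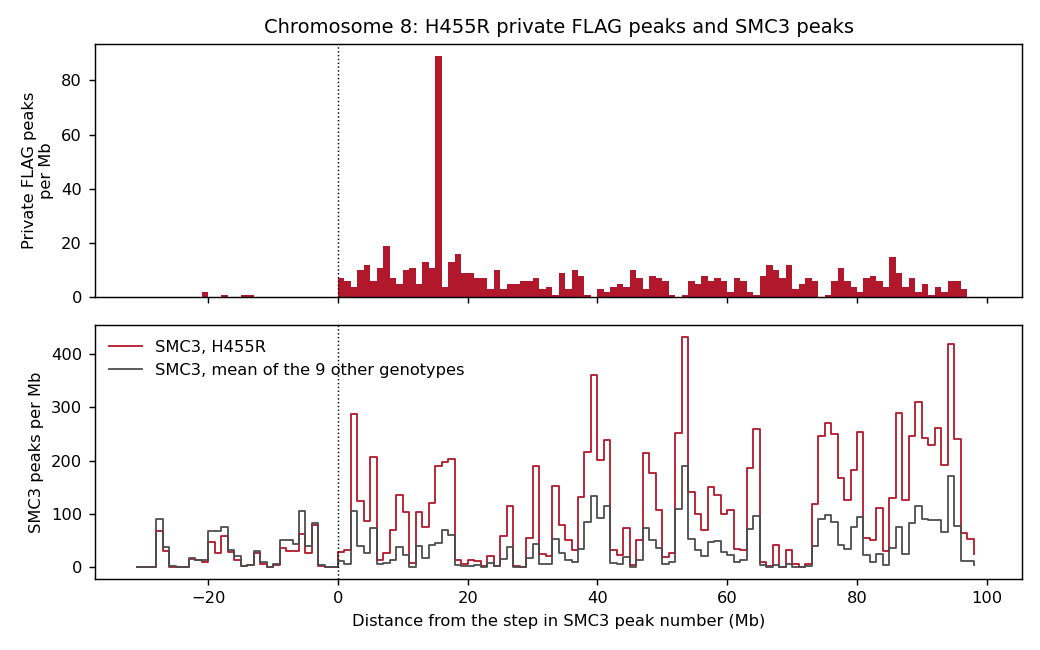
Number of private H455R FLAG peaks per Mb (upper panel, bars) and of SMC3 peaks per Mb (lower panel, lines for H455R and for the mean of the 9 other genotypes) along chromosome 8, against distance in Mb from the step in SMC3 peak number. Of the private peaks 681 lie beyond the step and 5 before it, with one tall bin that contains the dense stretch around Irf2.

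The peaks beyond the step can be set against those before it in the same list. For SMC3 the ratio rests on the lists that placed the step, and the H455R FLAG list holds the sites themselves, so neither is a test. Per FLAG peak before the step there were 29.6 beyond it in H455R (1125 and 38 peaks), and between 3.26 (Q418R) and 4.81 (R339Q) in the 9 others, with 3.55 in WT. For SMC3 the ratio was 18.4 in H455R (11524 and 627 peaks), and between 3.85 (Q418R) and 4.91 (R377H) in the 9 others, with 3.87 in WT. The CTCF antibody lists of WT gave 4.89 in treated and 5.07 in untreated cells. Scaled to peaks off chromosome 8, the part before the step was ordinary in H455R, at 14.1 FLAG peaks per 1000 against a median of 12.8 over the 9 others (9.88 to 24.9) and at 7.29 SMC3 peaks per 1000 against a median of 8.34. The part beyond it had 417.9 FLAG peaks per 1000 in H455R against 45.4 (WT) to 83.9 (R448Q) in the others, and 134 SMC3 peaks per 1000 against 30.5 (R377H) to 74.4 (R448Q).

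**Figure D3:**
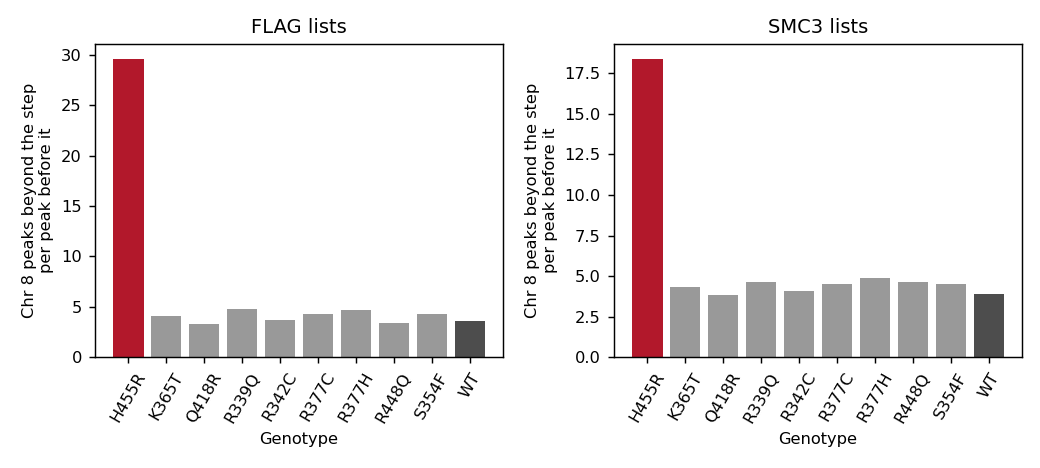
FLAG peaks (left) and SMC3 peaks (right) on chromosome 8 beyond the step, per peak before it, for each genotype. H455R stands at 29.6 for FLAG and 18.4 for SMC3, and none of the 9 other genotypes exceeds 4.81 for FLAG or 4.91 for SMC3.

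The share of the whole SMC3 list on chromosome 8 does not rest on where the step was placed. The chromosome was, however, picked after these data had been seen, so the comparison is a description. The share was 12.4% in H455R and from 3.54% (R377H) to 8.29% (R448Q) in the 9 others. Their mean was 4.71%, a difference of 7.67 percentage points (exact two-sided permutation over the 10 genotypes, p = 0.1). That is the smallest p that 1 list against 9 can give, so the design cannot pass 0.05. Sites bound by the WT transgene were also found in the H455R FLAG list more often beyond the step. H455R kept 129 of 661 WT FLAG sites there, 19.5% (16.7 to 22.7), against 21 of 186 before the step, 11.3% (7.50 to 16.6), and 1461 of 14545 on the other chromosomes, 10.0% (9.57 to 10.5). The segment was thus fuller in H455R for private sites, for retained WT sites and for cohesin peaks. Cultured mouse embryonic stem cells are known to gain copies of chromosome 8. DNA copy number in these clones was not measured here, and its part in these counts was not tested.

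Within the segment the sites were densest around Irf2, which encodes an interferon regulatory transcription factor. The longest row of 100-kb bins with at least 3 sites each ran from 46200001 to 46900000 on chromosome 8, a stretch of 700 kb. It held 87 sites, 8.22% of them all, against 3.42 percent of the H455R list. With the 45 other H455R peaks it held 132 FLAG peaks. The same stretch had 84 FLAG peaks in R448Q, 32 in K365T, 30 in R377C, 16 in Q418R, 16 in S354F, 15 in R377H, 12 in R339Q, 7 in R342C and 5 in WT. The order of the genotypes at the top was the same for SMC3, with 167 peaks in H455R, 126 in R448Q, 51 in K365T and 35 in R377C, while Q418R had 10 and WT had 14. The CTCF antibody lists had 34 peaks there in treated and 53 in untreated WT cells. FLAG peaks were thus frequent in this stretch in R448Q too, and the 87 sites are the H455R peaks there that touched no peak of the 11 other lists.

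**Figure D4:**
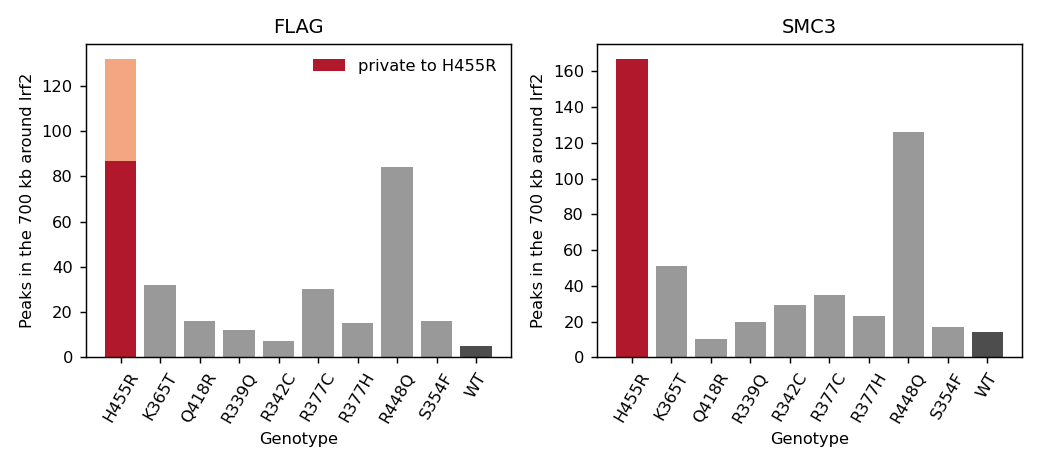
Number of FLAG peaks (left) and SMC3 peaks (right) in the 700 kb around Irf2 in each genotype. In the H455R FLAG bar the dark part is the 87 private peaks and the light part the other 45; R448Q follows with 84 FLAG and 126 SMC3 peaks, and WT has 5 and 14.

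Irf2 itself had 32 sites within its span of 108 kb (chr8:46739745-46847458), more than any other coding gene. H455R had 56 FLAG peaks in the gene, R448Q had 28, K365T had 14 and WT had 0. Scores of the 32 sites ran from 2.28 to 4.46 with a median of 3.24. Grouping sites within 10 kb of each other gave 67 groups with 203 sites, and the remaining 856 sites stood alone. The largest group, of 34 sites over 78.2 kb (chr8:46723631-46801842), runs from outside the gene into its span. The next, of 6 sites each, were nearest to Helt, which encodes a basic helix-loop-helix repressor, at chr8:46269440-46288522 and chr8:46299250-46333319. The widest site of all was also in Irf2. It spanned 1138 bp with 6 summits (chr8:46760894-46762031, score 3.86) and had no SMC3 peak in any genotype. Elsewhere in the stretch, Acsl1, a long-chain acyl-CoA synthetase gene, had 6 sites, Primpol, which encodes a primase that restarts replication, had 2, and 45 sites lay outside coding genes.

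Beyond this stretch the coding genes with the most sites were also on chromosome 8. Tenm3, a teneurin gene of neural wiring, had 25 sites in 1297 kb, where H455R had 37 FLAG peaks, R448Q had 13, K365T had 5 and WT had 3. Sgcz, which encodes a sarcoglycan, had 18 sites, with 23 FLAG peaks in H455R, 6 in R448Q, 4 in K365T and 0 in WT. Cdh13, the gene of T-cadherin, had 9 sites, and here H455R had 25 FLAG peaks, R448Q had 59, K365T had 22 and WT had 13, so R448Q had the most. Galntl6 followed with 7 sites, and Zfhx3, a zinc-finger homeobox gene, with 6. In all 207 coding genes had a site in their span, 152 of them only 1, and 28 had at least 3. Of the 207 genes 104 were on chromosome 8. Off that chromosome no coding gene exceeded the 3 sites of Magi2.

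The remaining 373 sites were scattered over 19 chromosomes, with none on Y. Their scores had a median of 2.86 and a maximum of 5.61, against a median of 2.89 and a maximum of 5.27 on chromosome 8. Median width was 110 bp off chromosome 8 and 122 bp on it. Chromosome 6 held 13.7% of these 373 sites, chromosome 18 held 10.7% and chromosome 12 held 10.2%. For WT FLAG peaks the shares of the full list were 6.95%, 3.69% and 4.00%. The lean to chromosome 6 was not particular to H455R. Among all private peaks of a genotype it was the leading chromosome in WT (14.9%), R342C (16.2%), R377C (16.0%) and S354F (18.6%). In the remaining genotypes another chromosome led.

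Few sites carried cohesin. A site had an SMC3 peak in H455R cells at 103 of 1059 places, 9.73% (8.08 to 11.7), against 46.3 percent of the H455R list. The other H455R peaks had one at 60.1% (58.3 to 61.9). The classes ran from 9.73% at the sites to 71.9% (69.9 to 73.8) at peaks with a CTCF antibody peak. Between them were 27.2% at peaks shared only with other mutants and 27.8% at WT FLAG peaks without a CTCF antibody peak. The rule kept peaks at a CTCF antibody peak, the class with most SMC3, out of the sites. A share below that of the list is therefore partly built in. The sites were also narrower, with a median of 117 bp against 181 bp, which leaves less room for an overlap. In no genotype did 912 sites (86.1%, against 41.9 percent of the list) have SMC3, and only 3 sites (0.283%, against 23.9 percent) had it in all 10.

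At an overlap of 1 bp the H455R and R448Q SMC3 lists reached the sites most often. SMC3 lay at 9.73% of the sites in H455R, at 9.44% in R448Q, at 4.91% in R377H, at 4.82% in R342C, at 4.34% in K365T, at 3.40% in R377C, at 2.64% in R339Q, at 2.46% in S354F, at 0.850% in Q418R and at 3.02% in WT. H455R and R448Q differed by less than the counting intervals. Over the whole H455R FLAG list SMC3 was found at 46.3 percent of peaks in H455R, at 42.4 percent in K365T, at 31.8 percent in Q418R, at 33.4 percent in R339Q, at 42.6 percent in R342C, at 39.7 percent in R377C, at 43.5 percent in R377H, at 52.9 percent in R448Q, at 33.4 percent in S354F and at 40.4 percent in WT. The R448Q list, the longest, was thus the one that reached most peaks of the whole list, and at the sites H455R and R448Q were level. On chromosome 8, where most sites lay, SMC3 peaks numbered 12151 in H455R and 12742 in R448Q. The whole lists held 98168 and 153647. At the sites the H455R share exceeded the mean of the 9 others, 3.99% with an SD of 2.42 over genotypes, by 5.74 percentage points (exact two-sided permutation over the 10 genotypes, p = 0.1, the smallest that can be reached). When an SMC3 peak and a site had to cover 50% of each other, that order was lost: the shares were 2.17% in H455R, 2.46% in R342C, 2.36% in R377H and 2.08% in R448Q, and the difference was 0.514 percentage points with H455R at rank 3 (exact permutation p = 0.5). At 1 bp both lists named the same places in part: 73 of the 103 sites with H455R SMC3 also had it in R448Q, 22 had it in H455R alone, and 44 further sites had it in some other genotype but not in H455R.

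Of the 103 sites with SMC3 in H455R, 83 were on chromosome 8. Among the 686 sites there SMC3 lay at 12.1% (9.87 to 14.8) in H455R, at 11.7% in R448Q and at 2.04% in WT, but with a reciprocal overlap of 50% at 2.04% in H455R and 2.33% in R448Q. Among the 373 sites elsewhere it lay at 5.36% (3.50 to 8.14) in H455R, at 5.63% in R342C, at 5.36% in R448Q and at 4.83% in WT. Off chromosome 8 the difference to the mean of the 9 others was 1.40 percentage points, 1 genotype was above H455R, and the exact permutation gave p = 0.5. Of the 22 sites with SMC3 in H455R alone, 20 were on chromosome 8. In the dense stretch around Irf2, 16 of 87 sites had SMC3 in H455R, 18.4% (11.6 to 27.8), and 17.2% had it in R448Q, 1.15% in WT and none in Q418R. The SMC3 lists differ in length, and the peak names of 6 lists carry one tag (H455R, K365T, R342C, R377H, R448Q and WT) where those of R377C and S354F carry it beside another and those of R339Q and Q418R carry only others. Over all sites the difference of H455R to the mean of the others was 4.42 percentage points among the 6 with one tag (exact permutation p = 0.167, the smallest that 6 lists allow) and 3.82 with equal numbers of SMC3 peaks in the 10 lists (exact permutation p = 0.1). Equal length does not equalise the lists on chromosome 8. There H455R still had 11.6% of its SMC3 peaks, against a mean of 4.44% in the 9 others. In the full lists H455R had 11524 SMC3 peaks beyond the step and R448Q had 10485. The remaining genotypes had from 1410 (Q418R) to 4329 (K365T). How far SMC3 at the sites follows this local peak number was not tested.

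**Figure D5:**
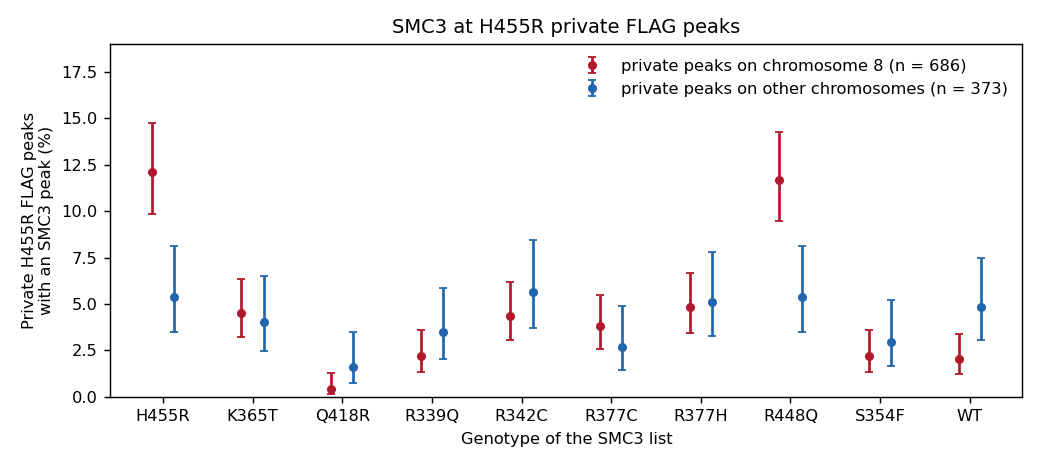
Share of the private H455R FLAG peaks with an SMC3 peak (%, vertical axis) in each genotype's SMC3 list, for the 686 on chromosome 8 and the 373 on other chromosomes; bars are 95% Wilson intervals, which cover counting error only. On chromosome 8 H455R (12.1%) and R448Q (11.7%) stand above the 8 others, and on the other chromosomes H455R (5.36%) lies among them.

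The 103 sites with SMC3 in H455R were not stronger FLAG peaks than the other 956. The median FLAG score was 2.89 in both, and the median width was 126 bp with SMC3 and 116.5 bp without. The SMC3 peaks themselves were above the middle of their list, with a median score of 3.41 against 3.05 for the whole H455R SMC3 list.

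The sites lay at gene ends less often than the other H455R peaks, most of which were at a CTCF antibody peak. The share for arbitrary positions was not computed, so avoidance of gene ends is not shown. Of the 1059, 59 had the start or end of a coding or lncRNA gene within 1 kb, 5.57% (4.34 to 7.12), against 14.8 percent of the list and 18.3% (17.0 to 19.8) of the other H455R peaks. Within a gene span lay 45.2% (42.3 to 48.2) of the sites, against 55.5 percent of the list and 59.4% of the other H455R peaks. Promoter windows held 2 sites (0.189%), against 5.53 percent of the list and 211 of the other peaks (7.55%). The median distance to a promoter window was 69957 bp for the sites and 22210 bp for the other H455R peaks. On chromosome 8, 6.27% of the sites were at gene ends, and off it 4.29%, so the low share was not that of 1 chromosome. The gene table gives spans without exons, so exon, intron and UTR were not assigned.

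The same rule applied to the other genotypes gave between 436 private FLAG peaks in S354F and 8784 in Q418R, with 691 in WT. Private peaks of R448Q resembled those of H455R in position, with 3.61% at gene ends and 46.9% in genes. Private peaks of Q418R had 10.5% and 59.4%, and those of R339Q 22.2% and 61.6%. No test was made of these differences, since each genotype is 1 list. Chromosome 8 held 20.6% of the private peaks in R448Q, 9.62% in K365T and under that in the 7 others, with 1.74% in WT. A lean to 1 chromosome was not seen in H455R alone. In R377H, 458 of 794 private peaks (57.7%) were on chromosome 11, in K365T 25.5% were on chromosome 11 and in R448Q 33.2% were on chromosome 1. Private peaks had SMC3 of their own genotype at 9.73% in H455R, and at 24.6% in K365T, 17.8% in R339Q, 13.9% in R448Q, 6.97% in Q418R and 2.75% in WT.

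Few genes of any list had a site nearby, as few genes did in all. A site lay within 10 kb of 445 of 34614 genes, 1.29 percent, which was 226 of the 1750 genes on chromosome 8 (12.9%) and 219 of 32864 elsewhere (0.666%). None was near any of 20 pluripotency genes, 15 neural genes, 15 mesoderm and endoderm genes, 15 genes of cohesin and its regulators including Ctcf, 20 imprinted genes, 39 Hox genes, 57 clustered protocadherins, 98 ribosomal protein genes or 67 histone genes. With so few genes near a site and only 9 of these genes on chromosome 8, counts of 0 do not set the lists apart from other genes. Other H455R peaks lay within 10 kb of 2699 of the 34614 genes, among them 11 Hox genes, 10 ribosomal protein genes, 3 clustered protocadherins, 3 histone genes, 2 pluripotency genes, 2 imprinted genes and 1 gene in each of the neural, the mesoderm and endoderm, and the cohesin lists. In large families the counts were 4 of 403 Zfp zinc-finger genes (0.993%) and 1 of 1110 olfactory receptor genes. These were Zfp617, Zfp423 and Zfp469 on chromosome 8, Zfp263, and Olfr731. The Zfp423 site was inside that gene of a developmental transcription factor (chr8:87740402-87740503, score 3.43). The Olfr731 site was 9207 bp from the gene (chr14:50228604-50228696, score 2.60).

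The 12 strongest sites were mostly far from genes, and 11 of them had no SMC3 in any genotype. The strongest lay 44.0 kb from the olfactory receptor gene Olfr161 (chr16:3637328-3637446, score 5.61). Next came a site 100.5 kb from Saraf, a regulator of store-operated calcium entry (chr8:34271396-34271494, score 5.27). A site near Dusp4, a MAP kinase phosphatase gene, was 315 kb from it (chr8:34492223-34492350, score 5.10). One with the same score of 5.10 was 56.2 kb from the splicing factor gene Rbfox1 (chr16:5828339-5828575). Inside genes were a site in Tox3 (chr8:90280387-90280501, score 5.00) and one in Tenm3 (chr8:49055063-49055156, score 4.83). The rest were nearest to Msr1, a macrophage scavenger receptor, Nr3c2, the mineralocorticoid receptor, Dynlrb2, a dynein light chain, Kcnn2, a potassium channel on chromosome 18, and Rnf144a, a ubiquitin ligase on chromosome 12, with scores from 4.80 to 5.00. The strongest site with any SMC3 was 9.385 kb beyond the span of Irf2 (chr8:46856843-46856964, score 5.10), and its SMC3 was in H455R alone.

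Other strong sites with SMC3 in H455R alone were a second one inside Irf2 (chr8:46759712-46760059, score 3.89), one 79.3 kb from Mphosph6 (chr8:117881286-117881452, score 3.79) and one 75.8 kb from Lclat1 (chr17:73032027-73032172, score 3.74). Scores of 3.57 were found 14.5 kb from Slc25a4, an ADP/ATP carrier gene (chr8:46225592-46225916), and inside Sh3rf1, a ubiquitin ligase gene (chr8:61342847-61343005). The 3 sites with SMC3 in all 10 genotypes were weak FLAG peaks. They were inside Adgrg3, an adhesion receptor gene (chr8:95022053-95022156, score 2.38), 65.9 kb from Ampd3, an AMP deaminase gene (chr7:110701824-110701916, score 1.80), and 2.39 kb from Slc2a9, a urate transporter gene (chr5:38346779-38346878, score 1.78). Places where every genotype had cohesin were thus at the low end of the sites' scores, while the 12 strongest sites had cohesin in 1 genotype or in none.

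At coding gene ends there were 32 sites, and the 6 strongest were all on chromosome 8, which held 64.8% of all sites. The strongest was 729 bp from Cpne7, a copine gene (chr8:123135914-123136106, score 4.21). Irx6, an Iroquois homeobox gene, had a pair close together, at chr8:92681180-92681297 with a score of 4.14 and at chr8:92680973-92681069 with a score of 3.71. Ces1e, a carboxylesterase gene, had one at chr8:93200864-93200956 with a score of 3.91, and Irf2 one at its end (chr8:46847932-46848040, score 3.28). The site at Tmem255b (chr8:13492723-13492854, score 3.23) was one of the 5 before the step, and it was the only one of these 6 with SMC3, which was in R377H.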

How the data were processed

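Of the 24 groups in the labels, 22 had a peak list; IgG and untreated WT FLAG were not analysed here. Reads were processed with Bowtie2, MACS2, Trim Galore and deepTools on mm10, per the submitters' processing notes, which name no version. The authors' peak caller left a score in the last of 5 deposited columns; its kind is not named, so it was ranked within a list only. A list pools replicates 1 and 2 by its title, but the peak names of the H455R FLAG list give replicates 1 and 3, and those of most other FLAG lists also differ from the title, so the libraries behind a list are in doubt. Depth is unknown, so a peak missing from a list may lie below its threshold. Identical intervals were collapsed to the highest score.

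Overlaps of at least 1 bp were found with Python 3.11.15, numpy 2.4.6 and pandas 2.3.3, checked against bedtools 2.31.1 and tested on simulated lists; figures used matplotlib 3.10.9. Exact permutation over 10 genotypes used scipy 1.17.1, and intervals are Wilson 95%. The chromosome 8 step is the 1-Mb boundary where the H455R SMC3 list parted most from the others. Genes and promoter windows are RefSeq GRCm38.p6. Sites were named by the nearest coding gene: the 12 strongest, the 6 strongest with SMC3 in all genotypes (3 existed), in H455R and the fewest others, or at gene ends, the 3 largest groups, the strongest per gene list, and 3 on either side of the rule. Chromosome 8, genes with the most sites, the widest site and the stretch around Irf2 were singled out after their values were seen. The sites and lists were chosen with earlier results of these data known.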

Additional observations from a re-analysis of the deposited data

Results flagged for a closer look

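In 6 measures over the 10 genotype lists, the gap between H455R and the next genotype made up between 0.576 and 0.941 of the whole range, more than Dixon's critical value for 10 values. Chance flags about 1 in 20 groups of unselected values, but these were not unselected. The FLAG measures include the private sites, the SMC3 measures use the step placed from the same SMC3 lists, and all 6 count the same segment of chromosome 8, so the values are a description and not tests. The share of the FLAG list on chromosome 8 was 30.2% in H455R, and the next genotype, R448Q, had 9.81%. FLAG peaks beyond 31 Mb per 1000 peaks off chromosome 8 numbered 417.9 in H455R and 83.9 in the next. FLAG peaks beyond that point per peak before it numbered 29.6 in H455R and 4.81 in the next. For SMC3 the corresponding values were 134 in H455R and 74.4 in the next per 1000 peaks, and 18.4 in H455R and 4.91 in the next as the ratio. The share of private FLAG peaks on chromosome 8 was 64.8% in H455R and 20.6% in the next.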

How the results depend on the processing

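No paired analysis was possible because each deposited list pools replicates, which are 1 and 2 by its title. The number of sites was 1059. It became 1631 when only a reciprocal overlap of 50% excluded a peak, 1717 against the upper 50% of the other lists, 319 within the upper 50% of the H455R list and 373 without chromosome 8. The 64.8% on chromosome 8 became 49.4% under the reciprocal rule, 52.6% against the upper 50% of the other lists and 61.6% without the stretch around Irf2. SMC3 of H455R at the sites, 9.73%, was 2.17% under reciprocal overlap, 5.67% with equal numbers of SMC3 peaks, 14.5% within 500 bp and 5.36% without chromosome 8. At the other H455R peaks, 60.1%, it was 24.2%, 51.0%, 63.9% and 62.3% under those 4, 64.0% for their upper 50% and 58.3% when near misses within 500 bp were left out of the sites. The difference of 5.74 points to the 9 other genotypes was 0.514 under reciprocal overlap, where H455R ranked 3 of 10 (exact permutation p = 0.5) and 1.40 without chromosome 8 (exact permutation p = 0.5), 4.42 among the genotypes with the H455R tag (exact permutation p = 0.167) and 5.35 to 6.42 leaving out 1 genotype at a time; it kept its sign under every alternative. The excess in SMC3 peaks on chromosome 8, 7.67 points, stayed between 7.19 and 8.12. The share at gene ends, 5.57%, was 3.02% with coding genes only and 4.29% without chromosome 8, and that in genes, 45.2%, was 35.9% with coding genes only. The chromosome 8 shares, their alternatives and those that leave out chromosome 8 or the stretch were chosen after seeing the data. Restricting to chromosomes 1 to 19, X and Y changed no value.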
